A study of Vernicia fordii and Jatropha curcas with 4 samples.

Results

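Messenger RNA of developing oil seeds was compared between 1 library of Jatropha curcas (physic nut) and 1 library of Vernicia fordii (tung tree), both trees of the Euphorbiaceae and both libraries numbered 8 in the deposited tables. The unit of comparison was the Arabidopsis locus code of the TAIR10 release that the authors attached to their assembled contigs. RPKM values, which divide read numbers by contig length and by how many reads the library mapped, were summed over the contigs of a code. Loci with a code in both tables and at least 10 RPKM in either library 8 were kept, which gave 6635 loci of 11415 in both tables and 15236 in either. The filter separated a locus whose higher value was 10 RPKM from one at 9.99 RPKM, and it left out 4780 shared loci.

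Polyadenylated RNA was sequenced from 2 Jatropha and 2 Vernicia libraries, and each library held the mixed RNA of 3 seeds. The Jatropha seeds came from 3-year-old trees on farmland in Guizhou, China, at 29 or 37 days after pollination. The Vernicia seeds came from 3-year-old trees in Hunan, China, at 90 or 135 days after pollination. In each species the later age was labelled as the stage of fast oil accumulation and the earlier one as its start. No label used here ties the column numbers 7 and 8 to these ages, and a number need not stand for like stages in the 2 trees. The labels name endosperm as the source material and also seeds as the tissue, and neither entry was checked against marker genes.

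Both species store oil as triacylglycerol in the endosperm of the seed, where it is held in oil bodies coated by oleosin proteins. Jatropha oil is known for its oleic and linoleic acid, and tung oil for eleostearic acid, a conjugated fatty acid that makes it dry to a film. In oil seeds generally, messages for storage proteins and oil body proteins become very abundant as the storage tissue matures. The tables pair contigs with locus codes alone, so codes were not given gene names or functions here, and no result below says what a locus does. By a rule set for this case, codes are printed only for the 2 loci furthest higher and the 2 furthest lower in Jatropha.

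Each species and number is represented by 1 library, so differences are described by size and none has a replicate check, a test or a p-value. RPKM summed to 817400 over 45411 contigs in Jatropha library 8 and to 751745 over 49582 contigs in Vernicia library 8. Locus codes covered 80.7% of that sum in Jatropha and 76.8% in Vernicia, on 13319 and 13332 loci. Read totals are unknown. The tables were normalized separately and on separate assemblies, so levels set across species are comparable only through the scaling described below.

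The Jatropha library 8 was dominated by very few loci, and the Vernicia library 8 less so. The highest Jatropha locus held 20.3% of the RPKM with a locus code, and the highest Vernicia locus held 9.60%. The 10 highest loci held 49.9% in Jatropha and 25.6% in Vernicia, and the 100 highest held 65.0% and 43.0%. It took 11 loci in Jatropha and 199 in Vernicia to reach 50% of the locus RPKM. In the libraries numbered 7 this took 330 loci in Jatropha and 616 in Vernicia, and the 10 highest loci held 9.41% and 9.38%. The shares of the 10 highest loci were thus far apart between the species in libraries 8 and nearly equal in libraries 7. These shares count only RPKM with a locus code. In Jatropha library 7, contigs without a code held 41.9% of all 1104587.9 RPKM, and a single contig had 277426 RPKM. In Vernicia library 7 such contigs held 20.8%, and the highest had 17615.68 RPKM. Below the top in libraries 8, the median locus stood at 5.81 RPKM in Jatropha and 8.99 RPKM in Vernicia. In these libraries 4664 Jatropha and 6297 Vernicia loci reached 10 RPKM. In bulk seed RNA, fewer cells of a type and less RNA per cell cannot be told apart.

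**Figure D1:**
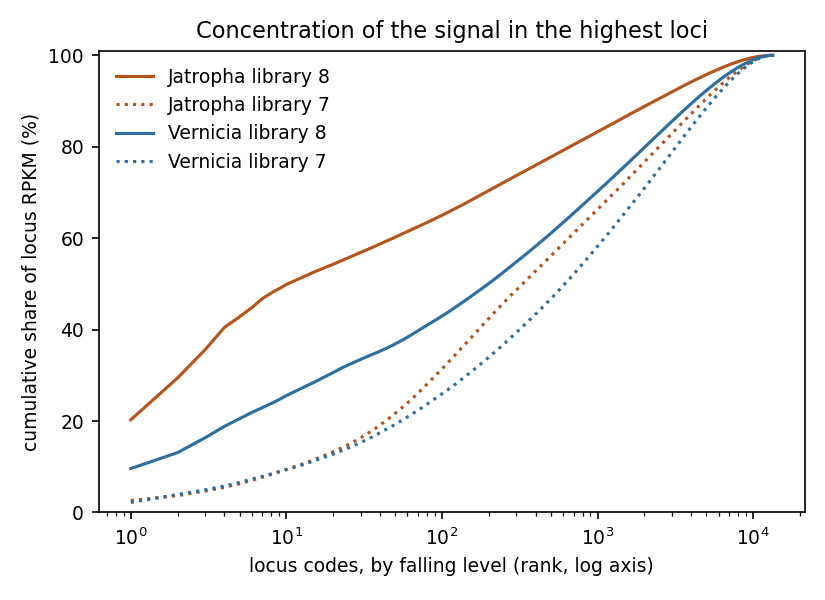
Cumulative share of the RPKM with a locus code (y axis, percent) over loci ordered from the highest level down (x axis, rank, log scale), as solid lines for libraries 8 and dotted lines for libraries 7 of Jatropha and Vernicia. At the first 10 loci the Jatropha library 8 line stands at 49.9% and the Vernicia library 8 line at 25.6%, while both library 7 lines stand near 9.4%.

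The loci at the top were mostly not the same in both species. Of the 10 highest loci of each library 8, 2 were in both lists, and of the 100 highest, 22 were. One of the 2 shared loci ranked 5 in Jatropha with 15361 RPKM and 3 in Vernicia with 18669 RPKM. It differed by 0.46 on the log2 scale after the scaling described below. In the libraries numbered 7 it had 116 RPKM in Jatropha and 110 RPKM in Vernicia. The other ranked 1 in Jatropha, with 133634 RPKM summed over 8 contigs, and 4 in Vernicia, with 14503 RPKM over 10 contigs, a log2 difference of 3.94. It had 447 RPKM in Jatropha library 7 and 303 RPKM in Vernicia library 7. Both loci were thus far lower in the libraries numbered 7 than in those numbered 8 of the same species, and the first stood at nearly the same level in both seeds.

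The leading loci of one seed, those in both lists included, were spread over a wide range of ranks in the other. Of the 100 highest Jatropha loci, 91 had a code in the Vernicia table, where their median rank was 400 and 25 ranked beyond 1000. Of the 100 highest Vernicia loci, 96 had a code in the Jatropha table, with a median rank of 384.5 and 32 beyond 1000. Of the 10 highest Jatropha loci, 9 had at least 10 times their own library 7 value, as deposited, against 6 of the 10 highest Vernicia loci. Among the 100 highest there were 33 such loci in Jatropha and 25 in Vernicia.

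Levels across loci were related between the seeds, to a degree that depended on the filter. Across the 11415 shared loci, which are not independent replicates, Spearman's rho was 0.59 between the species in libraries 8 and 0.59 in libraries 7. Within a species, between libraries 8 and 7, it was 0.69 in Jatropha and 0.86 in Vernicia. Over the 6635 kept loci rho was 0.29, over the 3458 loci with at least 10 RPKM in both libraries it was 0.49, and over the 932 loci with at least 100 RPKM in either it was -0.17. A filter on the higher of 2 values removes loci that are low in both and by itself lowers such a correlation, so these values describe the sets and do not rank them.

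The typical kept locus was lower in Jatropha as deposited. The median ratio of Jatropha to Vernicia was 0.598 over the 6342 kept loci with at least 1 RPKM in both, a shift of -0.74 on the log2 scale, and Jatropha values were divided by this ratio before loci were compared. All differences that follow are relative to that shift. On the scale of log2(RPKM + 1), 1751 loci were at least 2-fold higher in Jatropha (26.4% of the kept loci) and 1846 at least 2-fold lower (27.8%). The other 3038 loci (45.8%) lay within 2-fold. Without scaling, 982 loci were higher and 2893 lower, so the balance of directions rests on the scaling. The differences had quartiles of -1.15 and 1.07, and the whole range ran from -11.42 to 10.96.

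**Figure D2:**
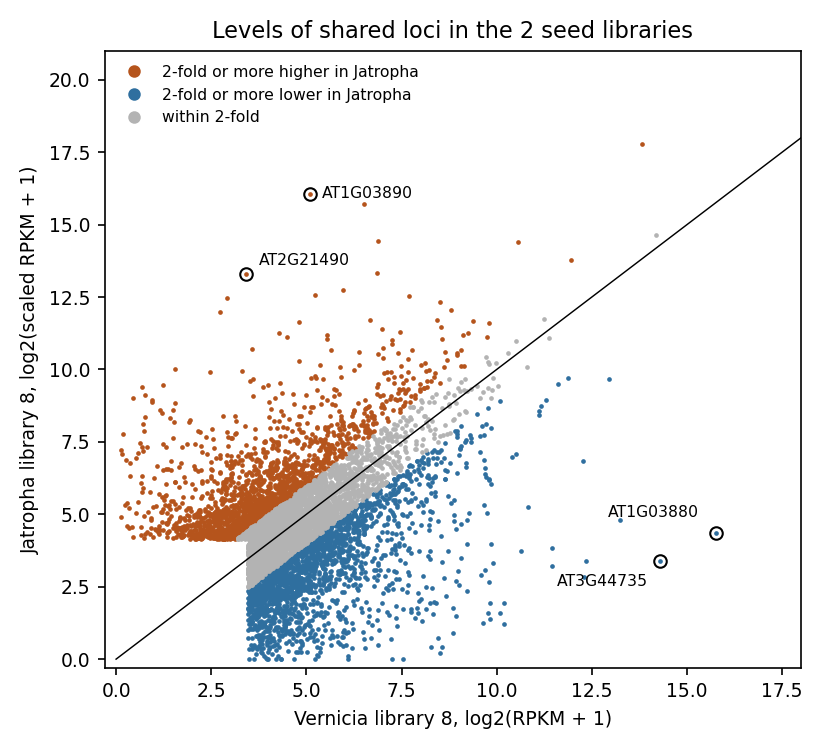
Each point is 1 of the 6635 kept loci, with its level in Vernicia library 8 on the x axis, log2(RPKM + 1), and in Jatropha library 8 after scaling on the y axis, log2(scaled RPKM + 1). Orange points are 2-fold or more higher in Jatropha (1751), blue points 2-fold or more lower (1846), grey points lie in between, the line marks equal levels, and circles mark the 4 loci named in the text.

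After the scaling, the larger differences ran in both directions in like numbers, and this balance was not recomputed without it. At least 4-fold higher in Jatropha were 775 loci (11.7%) and lower 902 (13.6%), and at 16-fold 158 (2.38%) were higher and 186 (2.8%) lower. At 64-fold there were 48 loci each way (0.723%). The 48 loci higher in Jatropha had a median of 280 RPKM there, with a range of 64.5 to 40509.8 RPKM, and a median of 1.75 RPKM in Vernicia, where the highest had 117 RPKM. The 48 loci lower in Jatropha had a median of 1.37 RPKM there, with none above 16.3 RPKM, and a median of 461 RPKM in Vernicia, with a range of 66.7 to 55441.1 RPKM. In the lower species 19 of the first 48 loci (Vernicia) and 17 of the second 48 (Jatropha) had under 1 RPKM.

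How the differences were spread over levels depended on how level was measured. Among the 3025 loci whose higher scaled level was under 30 RPKM, 17.2% were at least 2-fold higher in Jatropha and 27.3% lower. Among the 94 loci at 1000 RPKM or more, 63.8% were higher and 24.5% lower, with a median log2 difference of 2.04. A large difference by itself lifts the higher of 2 levels, so part of this order is built into the classes. Classes by the mean of the scaled library 7 levels, which do not enter the difference, were added after seeing the data. In these classes the share higher was 29.1% under 30 RPKM and 21.7% from 30 to 100 RPKM. It was 24.4% and 38.6% in the next classes up, and 42.6% of 61 loci at 1000 RPKM or more. The shares lower in the same classes, from the lowest class up, were 27.2%, 26.5%, 34.1%, 33.0% and 27.9%. The share higher thus rose from class to class above 30 RPKM, but the lowest class, at 29.1%, broke the order. Since Jatropha values were divided by 0.598 and the filter used values as deposited, a Jatropha locus needed 16.7 scaled RPKM to pass by its own level. With the filter set after scaling, an alternative chosen after seeing the data, 2205 loci were higher and 1846 lower of 7466 kept.

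**Figure D3:**
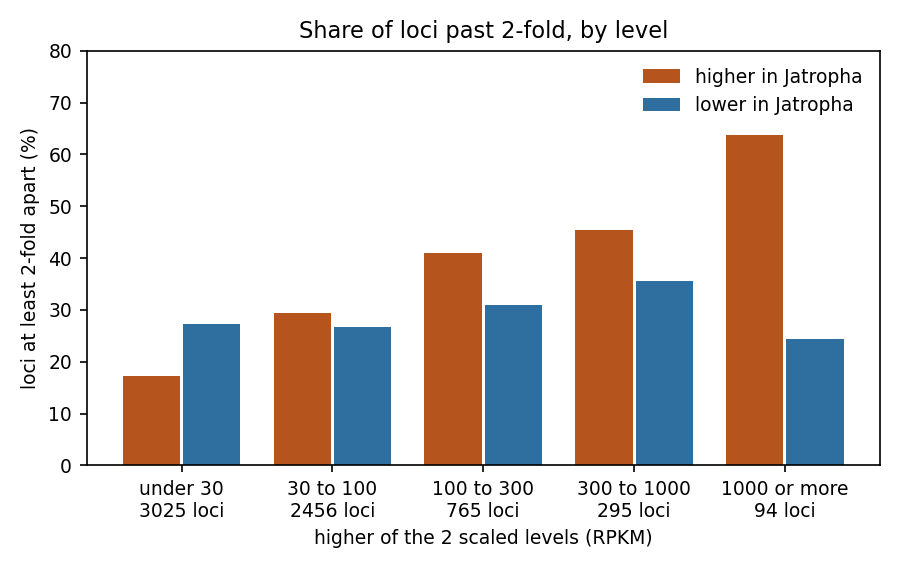
Percent of loci at least 2-fold apart (y axis), higher in Jatropha library 8 in orange and lower in blue, in 5 classes of the higher of the 2 scaled levels in RPKM (x axis, with the number of loci in each class). The orange bars go up from 17.2% under 30 RPKM to 63.8% at 1000 RPKM or more, and the blue bars stay between 24.5% and 35.6%; a large difference by itself lifts a locus into a higher class.

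The locus furthest higher in Jatropha was AT1G03890. It had 40509.8 RPKM in Jatropha library 8, on 1 contig, against 33.1 RPKM in Vernicia library 8, also on 1 contig. This was 6.14% of the locus RPKM of the Jatropha library, in which it ranked 3, and its rank in Vernicia was 2467. Its difference was 10.96 on the log2 scale. In the libraries numbered 7 it had 138 RPKM in Jatropha and 21.5 RPKM in Vernicia, a log2 difference of 2.73, so only the Jatropha library 8 stood far above the other 3 libraries.

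AT2G21490 was the second furthest higher. It had 6074.75 RPKM in Jatropha library 8 and 9.65 RPKM in Vernicia library 8, with 1 contig in each table and a log2 difference of 9.90. Its ranks were 10 in Jatropha and 6403 in Vernicia. In the libraries numbered 7 the values were 88.0 RPKM in Jatropha and 5.8 RPKM in Vernicia, a log2 difference of 3.81. Jatropha was thus the higher species in both pairs of libraries, by far more in those numbered 8.

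The locus furthest lower in Jatropha was AT1G03880, the highest of all loci in Vernicia library 8. It had 11.5 RPKM in Jatropha library 8, on 1 contig, and 55441.1 RPKM in Vernicia library 8, a log2 difference of -11.42. In Vernicia the sum came from contigs comp15400_c0 with 28250.88 RPKM and comp12120_c0 with 27190.22 RPKM. How reads were shared out between contigs of 1 code is not stated by the labels or tables, so the split is uncertain. In the libraries numbered 7 it had 17.96 RPKM in Jatropha and 30.5 RPKM in Vernicia, a log2 difference of -0.63, and the species lay within 2-fold of each other. By the highest contig of each locus, the library 8 difference of AT1G03880 was -10.39 and that of AT3G44735 was -11.56, so their order changed.

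AT3G44735 was the second furthest lower. It had 5.7 RPKM in Jatropha library 8, over 2 contigs, and 20182.2 RPKM in Vernicia library 8, nearly all of it on contig comp22766_c1, a log2 difference of -10.91. It ranked 6731 in Jatropha and 2 in Vernicia. Unlike the other 3 named loci it was abundant in the higher species in library 7 too, at 5456.82 RPKM in Vernicia, against 10.2 RPKM in Jatropha library 7. Its log2 difference there was -8.84, so this locus separated the species in both pairs of libraries.

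**Figure D4:**
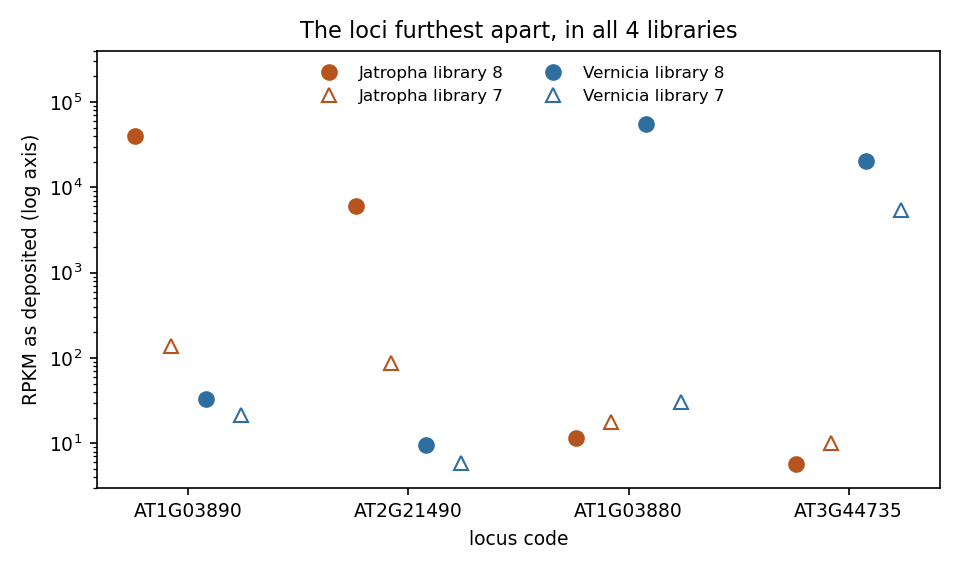
RPKM as deposited (y axis, log scale) of the 4 loci furthest apart between Jatropha library 8 and Vernicia library 8 (x axis), with filled circles for libraries 8 and open triangles for libraries 7, orange for Jatropha and blue for Vernicia. AT1G03890 and AT2G21490 are high in Jatropha library 8, AT1G03880 is high in Vernicia library 8, and AT3G44735 is high in both Vernicia libraries.

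The locus furthest higher and the locus furthest lower carry codes that follow each other. Arabidopsis codes are numbered along the chromosome, usually in steps of 10, so AT1G03880 and AT1G03890 stand next to each other in that numbering on Arabidopsis chromosome 1. Summed over both codes, the 2 seeds had 40521.4 RPKM in Jatropha library 8 and 55474.2 RPKM in Vernicia library 8. That sum differed by 0.29 on the log2 scale after scaling and by -0.45 as deposited, so the seeds lay within 2-fold by the sum and more than 64-fold apart in opposite directions by the single codes. In Vernicia that sum counts both contigs of AT1G03880, at 28250.88 and 27190.22 RPKM, and a sum by highest contig was not computed. The pair joins the extremes of all kept loci and was picked for that. By the highest contig of each locus AT1G03880 was at -10.39 and AT3G44735 at -11.56, so AT1G03880 was not the furthest lower. Of 1779 pairs of kept loci with consecutive codes, no other had differences of 64-fold or more in opposite directions. At 2-fold, 263 of the 1779 pairs (14.8%) differed in opposite directions and 259 (14.6%) in the same direction. The search that assigned the codes is not given here, and whether it placed like contigs of the 2 species on different codes was not tested.

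The number of contigs behind a locus moved with the difference for loci split more finely in Vernicia. Of 1149 loci with more contigs in Vernicia, 23.3% were at least 2-fold higher in Jatropha and 39.3% lower. Of 1554 loci with more contigs in Jatropha, 28.2% were higher and 25.03% lower, and of 3932 with equal numbers, 26.6% were higher and 25.6% lower. The part of contig splitting in these differences was not tested. Of the 3249 loci with 1 contig in each table, 27.4% were higher and 25.5% lower, close to the 26.4% and 27.8% over all kept loci. With the scaling ratio recomputed over these loci alone, at 0.638, 831 were higher and 903 lower.

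Loci with codes of the Arabidopsis organelle genomes went in different directions by genome. Of the 21 kept loci with plastid codes, 12 (57.1%) were at least 2-fold higher in Jatropha and 6 (28.6%) lower, with a median log2 difference of 1.17. Of the 13 with mitochondrial codes, 1 (7.69%) was higher and 8 (61.5%) lower, with a median of -1.17. Over all kept loci 26.4% were higher and 27.8% lower, so the plastid share lower was close to that of all loci. The median over nuclear codes was -0.06. All plastid codes, shared or not, held 0.491% of the locus RPKM in Jatropha library 8 and 0.429% in Vernicia library 8. Of the Jatropha plastid sum, 34.6% came from a locus that the Vernicia table does not list. Another locus gave 36.6% of the Vernicia plastid sum and had 0.95 RPKM in Jatropha library 8. Mitochondrial codes held 0.0364% in Jatropha and 1.19% in Vernicia, and 89.1% of the Vernicia sum came from 1 locus that the Jatropha table does not list. Without that locus the mitochondrial sums of libraries 8, as deposited and not scaled, were 240.34 RPKM in Jatropha and 752.78 RPKM in Vernicia. In libraries 7 they were 731.72 RPKM in Jatropha and 764.35 RPKM in Vernicia. Polyadenylated RNA was selected before sequencing, which leaves organelle messages only in part. By nuclear chromosome, the share of loci higher in Jatropha lay between 24.1% and 27.7%, near the 26.4% of all kept loci.

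Species differences in the libraries numbered 8 were partly present in those numbered 7, which are other libraries of the same species and assemblies and not replicates. In libraries 7, of 8460 loci kept by the same rule, 2148 were at least 2-fold higher in Jatropha (25.4%) and 2064 lower (24.4%). Of the 1751 loci higher in Jatropha in libraries 8, 909 (51.9%) were at least 2-fold higher in libraries 7 too and 115 were at least 2-fold lower. Of the 1846 loci lower in libraries 8, 1010 (54.7%) were lower in libraries 7 and 169 higher. Over all 6635 loci, 22.0% were higher and 26.3% lower in libraries 7. Among loci at least 64-fold apart in libraries 8, 43 of the 48 higher ones and 41 of the 48 lower ones were at least 2-fold apart the same way in libraries 7.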

How the data were processed

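RPKM values of assembled contigs, rounded to 2 decimals, were deposited by the authors in a separate table for each species, with TAIR10 locus codes. The unit comes from the tables' names. The submitters' processing notes list Bowtie and edgeR with no version or role. How contigs were assembled, matched to loci and filtered is not stated by labels or tables. Per the labels' protocols the libraries were directional. Here RPKM was summed by code, leaving out 3 Vernicia contigs with a code of another form, and compared as log2((Jatropha/0.598 + 1)/(Vernicia + 1)), where 0.598 is the median ratio over kept loci with at least 1 RPKM in both. Libraries 7 were compared in the same way with their own median ratio, 0.932. No test was run, since each group is 1 library. The pseudocount understates differences of low loci. Members, gene lists and thresholds were chosen with earlier results of these data known. The gene lists, written with codes from general knowledge, were not used, because the tables do not pair codes with names. Named loci were the 2 largest differences each way; loci described by rank alone were chosen after their values were seen. Alternatives covered the pseudocount, filter, scaling, contig summary, threshold and choice of libraries. The steps were tested on simulated data. Python 3.11.15, pandas 2.3.3, NumPy 2.4.6, SciPy 1.17.1 and Matplotlib 3.10.9 were used.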

Additional observations from a re-analysis of the deposited data

Results flagged for a closer look

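Signal outside the locus comparison was large in both seeds. Contigs without a locus code held 157776 RPKM in Jatropha library 8 (19.3% of its sum), where 11 of them reached 1000 RPKM, and 174116 RPKM in Vernicia library 8 (23.2%), where 18 did. The highest such contig had 23734.77 RPKM in Jatropha and 27214.83 RPKM in Vernicia. Loci listed in the Jatropha table alone held 89189.2 RPKM in its library 8, or 13.5% of the locus RPKM, of which 60525.69 RPKM came from 1 locus that ranked second in the library. Loci listed in the Vernicia table alone held 38077.67 RPKM, or 6.59%, of which 6129.68 RPKM came from 1 locus. At 10 RPKM or more there were 391 such loci in Jatropha and 477 in Vernicia. A code in 1 table may reflect the assembly or the locus search as well as the seed, which was not tested.

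The species difference turned between the pairs of libraries at a small number of loci. Of the 1751 loci at least 2-fold higher in Jatropha in libraries 8, 115 were at least 2-fold lower in libraries 7. Of the 1846 lower in libraries 8, 169 were higher in libraries 7. Over all 6635 kept loci, 26.3% were lower and 22.0% higher in libraries 7. These differences rest on 1 library each and were not tested.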

How the results depend on the processing

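The counts of loci depended on the scaling, the filter and the threshold, and on how many loci a setting let in. As deposited, without scaling, 982 loci were at least 2-fold higher in Jatropha and 2893 lower, and with equal totals 917 and 3038, against 1751 and 1846; these settings keep the shift of the median locus. Trimmed mean scaling gave 1749 and 1850. Equal totals without the 100 highest loci of either library, a ratio of 0.676, gave 1544 and 2072. A filter of 1 RPKM gave 2265 higher and 2882 lower of 11175 loci, and no filter 2270 and 2882 of 11415. A filter of 100 RPKM gave 347 and 342 of 932 loci, and loci with a single contig in both species gave 831 and 903 of 3249. A 4-fold threshold gave 775 and 902 of 6635. Fewer loci can enter these counts, and counts over different numbers of loci are not comparable as they stand. The rank correlation of 0.29 was 0.57 at 1 RPKM, 0.59 without a filter, -0.17 at 100 RPKM, 0.26 with the highest contig of a locus, 0.20 over loci with 1 contig in each table and 0.37 in libraries 7. The share of the 10 highest loci, 49.9% in Jatropha and 25.6% in Vernicia, was 40.8% and 17.0% over loci with 1 contig in each table, 9.41% and 9.38% in libraries 7, 8.82% and 6.48% without the 10 highest loci of either library and 63.7% and 38.4% over loci at 100 RPKM or more. With the highest contig of a locus it was 23.2% in Vernicia. Except where a setting removed loci, the cause was not tested. Scaling could not change these shares or the ranks. With Vernicia library 7 in place of 8, chosen after seeing the data, 1938 loci were higher and 2007 lower of 7680. The ratio was then 0.415, and AT1G03880 was at -0.13, against -11.42. No direction of a named locus turned where it could be recomputed. With the highest contig of a locus, AT3G44735 at -11.56 lay further lower than AT1G03880 at -10.39. AT1G03880 and AT3G44735 have several contigs and were outside the set with a single contig, and all 4 were outside the set without the 10 highest loci. The alternatives for the gene lists were not run. Read totals are unknown, so counting error could not be given. No paired analysis was possible because there is only 1 library on each side and nothing was tested.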
